A study of Mus musculus with 5 samples.

Results

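Runx3-bound regions were called across the genome of D1, a line of mouse dendritic cells whose origin the labels give as spleen, and 590 of them had their summit inside an exon. Members were taken from the 12905 autosomal peaks of the deposited list, which holds 13014 peaks in all. A peak was exonic when its summit lay in any exon of a GENCODE vM1 protein-coding gene and outside the promoter window, set from 1 kb upstream to 100 bp downstream of the start site of any protein-coding transcript. Each summit was read first as coding, then as 5′ UTR, then as 3′ UTR, and last as an exon of a transcript without coding sequence. This gave 242 peaks in coding exons, 136 in 5′ UTR exons, 130 in 3′ UTR exons and 82 in other exons. The exonic peaks made up 4.57% of autosomal peaks, beside 4783 intronic, 4580 intergenic and 2952 promoter peaks.

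The samples were 3 chromatin immunoprecipitation libraries made with a polyclonal rabbit antibody to mouse Runx3 (Runx3 IP) and 2 control libraries (NIS IP) for which rabbit non-immune serum took the place of the antibody. All came from 1 cell line under 1 condition, so no treatment or genotype was compared. The peak list was called on the Runx3 side against the NIS side as 1 set, and which libraries entered each side is not given in the sources used here. The paper's methods describe 2 biological replicate experiments, and how these relate to the 3 Runx3 libraries is not stated. After the authors kept 1 tag per position, 8689867 Runx3 and 4946605 NIS tags remained. No value per library was analysed, so the intervals and p-values below cover counting error only and take peaks as independent.

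Runx3 is a member of the RUNX family of transcription factors, which bind DNA through the Runt domain together with the partner CBFβ. The core of their binding site reads TGTGGT or TGCGGT. In dendritic cells and macrophages Runx3 acts downstream of TGF-β, and its loss in mice is known to lead to colitis. Exons are mostly studied as messenger RNA sequence, yet a DNA-binding protein meets them as part of the chromatin like any other stretch of a gene, and in coding exons the letters of a binding site are also letters of codons.

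The sequences below show the RUNX core in the exons that held some of the strongest peaks of each kind. Each is 30 bases of mm9 printed 5′ to 3′ on the strand that carries the core, with the core in capitals. The first 5 lie in coding exons, the next 4 in 5′ UTR exons and the last 3 in 3′ UTR exons.
Ppargc1a, chr5:51885937-51885966, plus strand: agggtcatcgttTGTGGTcagatacttgag
Ncam2, chr16:81437923-81437952, plus strand: ttccccagccccTGCGGTcagctggttgta
Slc15a1, chr14:121877305-121877334, minus strand: cattgtggacgcTGTGGTgtacccgctcat
Atg9a, chr1:75184651-75184680, minus strand: gcagttcctcttTGTGGTtgccttcaccac
D730045B01Rik, chr5:152171496-152171525, plus strand: cgggaagggtttTGCGGTtaccctgagcgg
Xpo1, chr11:23157379-23157408, plus strand: gtttcttgagttTGCGGTgtaggagaggaa
Grcc10, chr6:124691088-124691117, minus strand: acttccgcctcgTGCGGTcccgcttccttt
Lcp1, chr14:75576627-75576656, minus strand: caagcagggctgTGTGGTcacaaggcagga
Slbp, chr5:33994731-33994760, plus strand: gaggacacagacTGCGGTcagtgggcgggg
Heg1, chr16:33770131-33770160, plus strand: ctattagactatTGTGGTctaaaagaggaa
Erbb3, chr10:128005194-128005223, plus strand: gttttagtaaccTGTGGTcaactgtcatct
Cux1, chr5:136724133-136724162, plus strand: gaccgtgtggtcTGTGGTgcctgaggcaca
In Ppargc1a and D730045B01Rik the core lay on the strand opposite to the gene, whereas in Ncam2, Slc15a1 and Atg9a it lay on the gene strand. The Cux1 site holds a further TGTGGT just before the one in capitals.

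The 590 exonic peaks fell in 557 genes, which is 2.62% of the 21281 autosomal protein-coding gene names of the annotation. A single exonic peak was held by 522 genes, a pair by 34, and Zfp652, a zinc finger gene, held 4. The 4 Zfp652 peaks were weak, with a fold enrichment over NIS of 5.34 in the 3′ UTR, 7.05 in the first coding exon, and 5.96 and 5.77 in other exons. Exonic peaks were found on all 19 autosomes, from 14 on chromosome 12 to 70 on chromosome 5, of which 41 lay beyond 110 Mb. Fragments at the summit ranged from 9 to 104 with a median of 18. The exact 95% Poisson interval of the median peak's count was 10.7 to 28.4, and that of the highest peak was 85.0 to 126.

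Class borders were not sharp in every gene, since transcripts of 1 gene differ. Of the 242 coding summits, 27 were also intronic in another transcript, and 9 and 5 were also 5′ and 3′ UTR of another transcript. Of the 82 summits in other exons, 78 were intronic in another transcript of a protein-coding gene. A further 103 exonic summits lay in the promoter window of a transcript that does not code for protein, which the rule for promoters did not use. These were 28 coding, 41 5′ UTR, 6 3′ UTR and 28 other-exon peaks.

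Exons held more Runx3 summits per Mb than introns, and the excess differed among classes. Introns held 5.53 summits per Mb. Lengths counted every base of a class, also where reads cannot be aligned uniquely, and the effect of this on the ratios was not tested. Coding exons held 7.43, a ratio of 1.34 (95% interval 1.18 to 1.53, adjusted p = 3.30e-05, exact binomial test on summits given class lengths). The 5′ UTR exons held 60.7 per Mb, a ratio of 11.0 (9.18 to 13.0, adjusted p = 1.17e-88 in the same exact test), on only 2.24 Mb of sequence. The 3′ UTR exons held 5.34 per Mb, a ratio of 0.966 (0.805 to 1.15), and did not differ from introns past the threshold (exact test, adjusted p = 0.759). Other exons held 9.11 per Mb (ratio 1.65, 1.31 to 2.05, exact test, adjusted p = 4.50e-05).

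Distance to a start site separated these classes. A protein-coding start site lay within 1 kb of 125 of 136 5′ UTR summits (91.9%) and 94 of 242 coding summits (38.8%), but of only 8 of 130 3′ UTR summits (6.15%) and 8.13% of intronic summits. The median distance to the nearest protein-coding start site was 0.211 kb for 5′ UTR, 1.85 kb for coding, 5.96 kb for other and 9.88 kb for 3′ UTR summits. Summits in other exons lay a median of 0.927 kb from the start of their own transcript. All distance settings used start sites of protein-coding transcripts only. Some summits over 1 kb away, Mafg among them, therefore lay in the promoter window of a transcript that does not code for protein. With the promoter window drawn out to 1 kb downstream, 338 exonic peaks were left and the ratio to introns was 1.02 in coding exons (0.860 to 1.20, exact test, adjusted p = 0.891), 0.980 in 3′ UTR exons and 1.31 in other exons (adjusted p = 0.0958). The 5′ UTR exons still stood above introns at 3.63 (1.81 to 6.51, exact test, adjusted p = 0.00128), from 11 peaks. Within the stretch between the promoter window and 1 kb downstream, introns themselves held 24.2 summits per Mb and coding exons 20.7 (ratio 0.857, exact test, adjusted p = 0.250), while 5′ UTR exons held 75.4 (ratio 3.12, exact test, adjusted p = 8.48e-23) and other exons 43.5 (ratio 1.799, 1.15 to 2.70, exact test, adjusted p = 0.0136). The higher density of coding exons as a whole was not seen past the threshold in either of these stretches taken apart. Distance to the start site was not matched further within a stretch, and its part in these ratios was not tested.

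**Figure D1:**
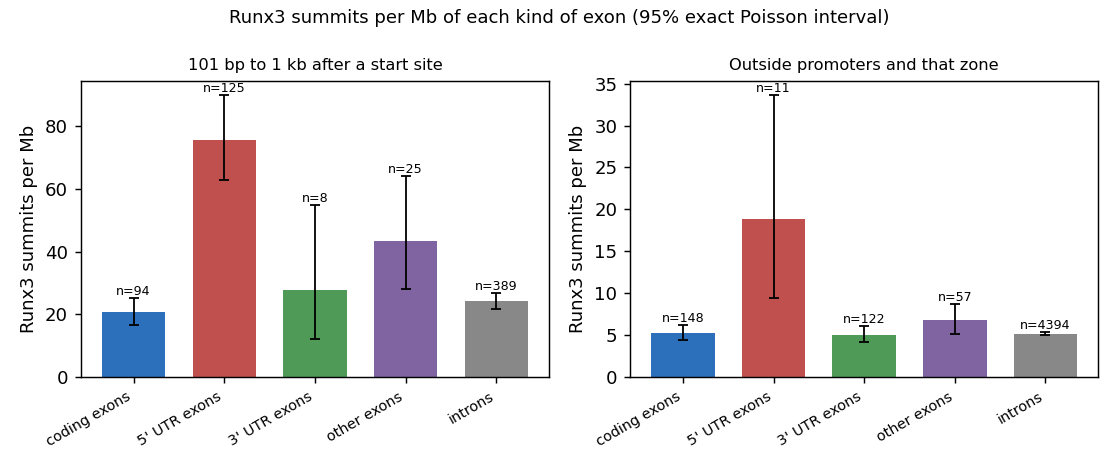
Runx3 summits per Mb (vertical axes, different scales) in each class of exon and in introns, on the left between the promoter window and 1 kb downstream of a start site and on the right in all other sequence outside promoters. Bars are densities, lines are exact 95% Poisson intervals and n is the number of summits. The 5′ UTR bars stand highest in both panels, at 75.4 and 18.8 per Mb, and on the right coding exons (5.28), 3′ UTR exons (5.07) and introns (5.17) lie side by side.

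The limit of the promoter window cut through a run of peaks at the start of genes. Just outside the exonic set, 250 promoter summits in the last 50 bp before the downstream limit had a median fold of 7.40, and 46.0% held a RUNX core. Just inside it, 55 exonic summits in the first 50 bp past the limit had a median fold of 6.62, and 60.0% held a core. Both groups had a median GC content of 68.7%.

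Along the coding sequence the summits were gathered in first coding exons. Of 210 coding summits in genes with more than 1 coding exon, 66 (31.4%) lay in the first one, which made up 9.19% of the coding length outside promoters (ratio 3.42, exact binomial test, adjusted p = 4.80e-19). Internal exons held 117 summits (55.7%) on 74.5% of the length (exact test, adjusted p = 6.47e-09), and last exons 27 (12.9%) on 16.4% (adjusted p = 0.191). Beyond 1 kb from the start sites the shares in first, internal and last coding exons were 4.38%, 77.4% and 18.2%, next to 4.16%, 78.4% and 17.4% of the length, and none differed past the threshold (exact test, adjusted p = 0.830 for each).

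Exonic summits carried a RUNX core more often than the sequence beside them. A core lay within 100 bp of the summit in 376 of 590 exonic peaks (63.7%, 95% Wilson interval 59.8 to 67.5), next to 64.1% of all autosomal peaks. The same window placed 1 kb away held a core in 17.1% of exonic peaks on the side of lower coordinates and in 15.4% on the other side. Only the summit held the core in 311 and 314 peaks and only the flank in 36 and 29 (exact McNemar test, adjusted p = 4.57e-55 and 1.37e-60). The excess of the summit over its flanks passed the test in all 4 classes, with differences of 41.2 to 52.3 percentage points. With TGTGGT alone the differences were smaller, at 26.45 and 30.99 points in coding and 17.65 and 13.24 in 5′ UTR exons. In 3′ UTR exons they were 40 and 45.38 points, and in other exons 40.24 and 34.15. The nearest core was a median of 15 bp from the summit, and in 259 peaks, 68.9% of those with a core, it was within 25 bp.

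The core share was 64.9% in coding (157 peaks), 56.6% in 5′ UTR (77 peaks), 66.2% in 3′ UTR (86 peaks) and 68.3% in other exons (56 peaks). Intronic peaks held one in 69.7%, intergenic peaks in 69.3% and promoter peaks in 47.1%. Against introns, the 5′ UTR share was lower (odds ratio 0.567, 0.396 to 0.814, Fisher's exact test, adjusted p = 0.00851), and coding exons and 3′ UTR exons did not differ past the threshold (odds ratio 0.802, 0.607 to 1.06, and 0.849, 0.580 to 1.26). With peaks split at 1 kb from a start site, no class differed from introns past the threshold on either side. Distance was not matched further, and the smallest groups held 8 peaks (3′ UTR, within 1 kb) and 11 (5′ UTR, over 1 kb). Within 1 kb the median GC content was 68.7% at 5′ UTR and 57.2% at intronic summits. Over 1 kb away the exonic and intronic shares were 68.3% and 70.6% (odds ratio 0.900, 0.706 to 1.15), and within 1 kb they were 57.5% and 60.2% (0.898, 0.643 to 1.26).

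**Figure D2:**
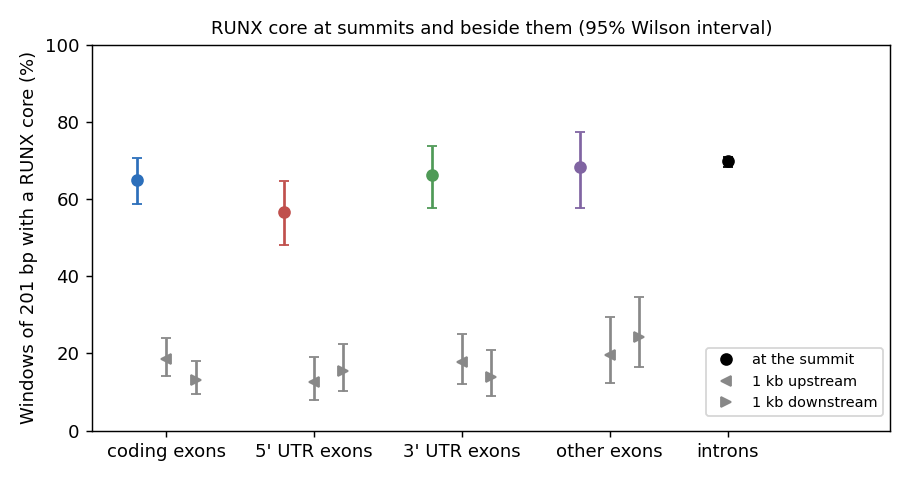
Percentage of windows reaching 100 bp to each side that hold a RUNX core (vertical axis), at the summit (circles) and 1 kb to the lower-coordinate (upstream, left triangles) and higher-coordinate side (downstream, right triangles), with 95% Wilson intervals. Summits lie between 56.6% and 68.3% in the exon classes and their flanks between 12.5% and 24.4%. Introns are shown at the summit only, at 69.7%.

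**Figure D3:**
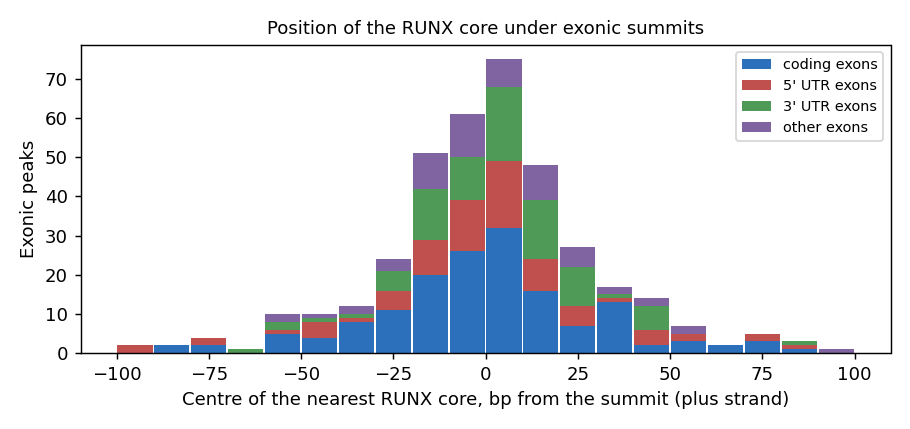
Number of exonic peaks (vertical axis) by the position of the core nearest the summit, in bp along the plus strand (horizontal axis, bins of 10 bp), coloured by class of exon. The 376 peaks with a core pile up around the summit in every class, with medians of 14.5 bp in coding, 15.5 bp in 5′ UTR, 14.5 bp in 3′ UTR and 17.5 bp in other exons.

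The letters of the core differed by class of exon. TGTGGT was found within 100 bp of 42.6% of coding and 26.5% of 5′ UTR summits, next to 62.6% of intronic ones (odds ratio 0.444 and 0.215, Fisher's exact test, adjusted p = 1.76e-09 and 1.48e-16). TGCGGT, the form with a CpG, went the other way, with 26.9% of coding, 33.8% of 5′ UTR and 10.7% of intronic summits (odds ratio 3.06 and 4.25, Fisher's exact test, adjusted p = 2.62e-11 and 3.89e-12). The 3′ UTR summits held the 2 forms in 56.9% and 14.6%, and neither share differed from introns past the threshold (exact test, adjusted p = 0.249 and 0.220). Over all exonic peaks TGCGGT lay at 23.9% of summits but at 3.39% and 2.54% of their flanks, and over all promoter peaks at 26.3% of summits. More than 1 kb from every protein-coding start site the difference between coding exons and introns was smaller. It was 16.2% against 9.26% for TGCGGT (odds ratio 1.90, 1.16 to 2.99, Fisher's exact test, adjusted p = 0.0467) and 56.1% against 64.7% for TGTGGT (same test, adjusted p = 0.0895). Within 1 kb of a start site, where 125 of the 136 5′ UTR summits lay, TGCGGT was found at 34.4% of 5′ UTR and 27.2% of intronic summits, which did not differ past the threshold (odds ratio 1.40, 0.884 to 2.20, Fisher's exact test, adjusted p = 0.235), and TGTGGT at 24.8% and 37.8% (odds ratio 0.543, adjusted p = 0.0187). In coding exons at that distance both forms differed from introns, with 43.6% against 27.2% for TGCGGT and 21.3% against 37.8% for TGTGGT (adjusted p = 0.00885 for each, exact). Comparing each form apart was chosen after seeing the data.

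Base composition moved with these shares. The median GC content within 100 bp of the summit was 68.2% in 5′ UTR, 58.2% in coding, 52.7% in other and 49.3% in 3′ UTR exons, next to 48.8% in introns. In the flanks of the same peaks it was 45.9%, 48.0%, 47.3% and 47.3% in that order, next to 46.0% in introns. The ratio of observed to expected CpG was 0.895, 0.507, 0.284 and 0.277 in the same order, next to 0.210 in introns and 0.853 in promoters. Coding summits within 1 kb of a start site had a median GC content of 68.7% and those farther away 53.5%. The part of base composition in the difference between the 2 forms of the core was not tested. Its part in the excess of cores at summits over flanks was not tested either.

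The base that followed the core was C at 33.2% of the cores nearest exonic summits and at 15.6% of cores in their flanks, and G at 18.2% and 30.2%. T followed in 38.5% and 35.8%. By class, C followed at summits in 46.7% of 5′ UTR, 35.7% of coding, 30.2% of 3′ UTR and 12.5% of other-exon cores. In their flanks it followed in 23.8%, 12.8%, 20.5% and 7.5%, in the same order. Intronic summits had C in 26.6% and T in 44.9%, and intronic flanks 19.6% and 29.8%. These shares were not tested. The sequences of Ppargc1a, Ncam2, Lcp1, Slbp, Heg1 and Erbb3 above are examples with C.

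In coding exons the cores under summits lay on the gene strand less often than other cores in coding sequence. Of 167 cores lying whole inside coding sequence within 100 bp of a coding summit, 60 (35.9%) read on the gene strand, against 16555 of 33527 elsewhere (49.4%, odds ratio 0.575, 0.412 to 0.797, Fisher's exact test, p = 0.000601). With only the core nearest each summit the count was 45 of 127 (35.4%, p = 0.00178, exact). For peaks over 1 kb from every protein-coding start site it was 37 of 108 (34.3%, p = 0.00192, exact). The 2 forms of the core gave 40 of 102 for TGTGGT (39.2%, against 52.4% elsewhere, p = 0.00952, exact) and 20 of 65 for TGCGGT (30.8%, against 38.4%, p = 0.249, exact). Among coding peaks with a fold of 10 or more, which hold 48 cores, the odds ratio was 0.943 (0.511 to 1.73, p = 0.886, exact), so the difference was not detectable among the strongest peaks. Cores of 1 peak are not independent.

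Reading frame differed less. Each core was placed by its first base along the gene strand, which is the last base of a core on the opposite strand. That base fell on codon base 1, 2 and 3 in 29.9%, 40.1% and 29.9% of cores under coding summits. Elsewhere it did so in 28.3%, 33.3% and 38.4% (chi-square test over the 3 frames, p = 0.0597). The test pooled both strands, so it does not tell frame from strand. The most common placement elsewhere, on the gene strand at codon base 3, made up 29.9% of cores there and 20.4% under summits. Among gene-strand cores alone this placement held 34 of 60 under summits and 10032 of 16555 elsewhere. Ncam2, Slc15a1 and Atg9a, whose cores are printed above, are of that kind.

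**Figure D4:**
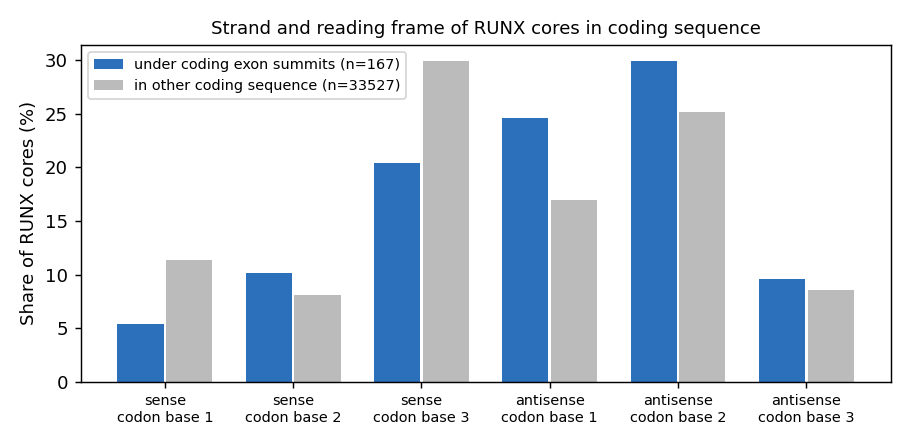
Percentage of RUNX cores (vertical axis) by strand relative to the gene and by codon base (horizontal axis), for 167 cores under coding exon summits and 33527 other cores in autosomal coding sequence. The codon base is that of the first base of the core along the gene strand, which for antisense cores is the last base of the core. The 3 sense placements add to 35.9% under summits and 49.4% elsewhere.

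Exonic peaks were weaker than intronic peaks, apart from those in 3′ UTRs. The median fold was 7.67 in coding, 7.15 in 5′ UTR, 8.12 in 3′ UTR and 7.45 in other exons, next to 8.29 in introns. A fold at or above the autosomal median of 8.12 was reached by 43.8% of coding peaks (Fisher's exact test against the 53.6% in introns, adjusted p = 0.00491), 30.9% of 5′ UTR (adjusted p = 4.49e-07), 50.8% of 3′ UTR (adjusted p = 0.534) and 41.5% of other-exon peaks (adjusted p = 0.0419). With peaks split at 1 kb from a start site no class differed past the threshold, with 49.4% of exonic and 54.7% of intronic peaks reaching it over 1 kb away (odds ratio 0.808, 0.643 to 1.01) and 32.1% and 41.1% within 1 kb (0.678, 0.479 to 0.958, adjusted p = 0.0869 in the exact test). The NIS background was over 1.5 times its lowest value at 32.0% of exonic and 31.8% of intronic peaks, and another summit lay within 10 kb of 44.1% and 44.3%. Neither share differed past the threshold in any class (adjusted p of at least 0.776 in the exact test). The core share of exonic peaks was 60.2% under a fold of 10 (272 of 452), 74.6% from 10 to under 20 (94 of 126) and 83.3% at 20 or more (10 of 12).

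**Figure D5:**
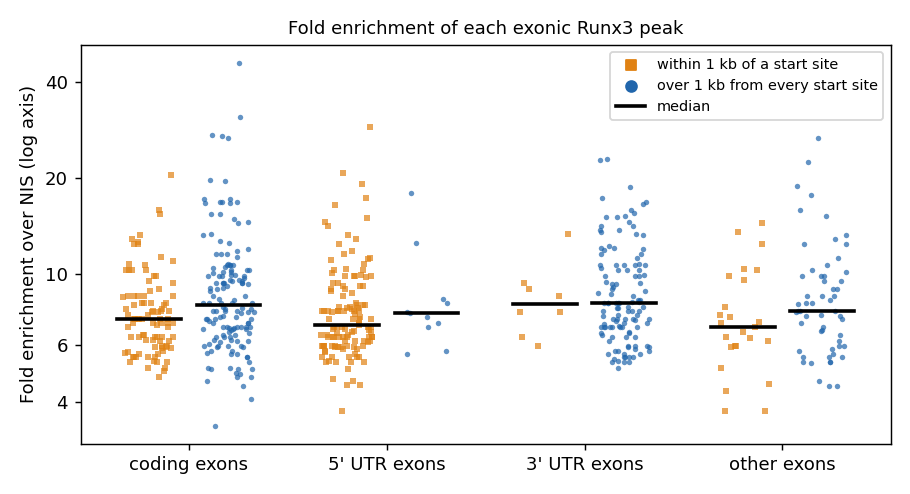
Fold enrichment over NIS (vertical axis, log scale) of each of the 590 exonic peaks by class of exon, split into summits within 1 kb of a start site (squares) and farther away (circles), with black bars at the medians. In coding exons the medians are 7.25 and 8.01, and in 5′ UTR exons, where 125 of 136 peaks are squares, 6.97 and 7.58.

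The strongest coding peak lay in Ppargc1a, which encodes a transcriptional coactivator that drives mitochondrial biogenesis. It spanned chr5:51885778-51886037, with 104 fragments at the summit and a fold of 45.8, inside exon 5 of 13 and 59247 bp from the nearest protein-coding start site. Its nearest core lay 38.5 bp from the summit, farther than in most exonic peaks. Ncam2, a neural cell adhesion gene, followed with 70 fragments and a fold of 31.1 in exon 4 of 18. Slc15a1, the intestinal peptide transporter, had 66 fragments, a fold of 27.0 and 3 cores in exon 14 of 23, and Atg9a, a membrane protein of autophagy, had 60 fragments, a fold of 26.6 and 2 cores in exon 6 of 16. The called peaks were wider than these exons and reached into introns, with 76.2%, 51.2%, 40.2% and 59.3% of their length in exons. D730045B01Rik had 64 fragments and a fold of 20.4 in a single coding exon, 243 bp from a start site.

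Some of the strongest coding peaks held no core within 100 bp of the summit. Hrc, which encodes a calcium-binding protein of the sarcoplasmic reticulum, had 65 fragments and a fold of 27.3 in its first coding exon. Cd3eap, a subunit gene of RNA polymerase I, had 44 fragments and a fold of 19.7 in its last exon. Mtap4, a microtubule-associated protein gene, had 45 fragments and a fold of 19.6. All 3 of these peaks lay wholly inside exons. Hrc held an AP-1 site and the other two a PU.1 site.

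The strongest 5′ UTR peak also lacked a core, in BC017643, with 65 fragments and a fold of 28.9 at 279 bp from a start site. Xpo1, the main nuclear export receptor, had 46 fragments and a fold of 20.7, and Grcc10 had 44 fragments and a fold of 19.2. Lcp1, which encodes the leukocyte actin-bundling protein L-plastin, had 41 fragments and a fold of 17.9. Its summit lay in exon 2 of 17, 13473 bp from any protein-coding start site. This made it 1 of the 11 5′ UTR peaks over 1 kb away. Slbp, which binds the stem-loop of histone messenger RNA, had 40 fragments and a fold of 17.4, and Sgms1, a sphingomyelin synthase, 41 fragments and a fold of 16.5. BC017643 and Grcc10 lay in the promoter window of a transcript that does not code for protein, and the other 4 did not.

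In 3′ UTRs the 2 strongest peaks were nearly equal. Heg1, a receptor gene of heart and vessel development, had 51 fragments and a fold of 22.8, and Erbb3, a receptor tyrosine kinase, had 52 fragments and a fold of 22.7. Cd3d, a chain of the T cell receptor complex, had more fragments, 64, but a fold of 18.7 over a NIS background of 1.00. Cux1, a homeobox gene, had 59 fragments and a fold of 17.3 over the same background, whereas the backgrounds of Heg1 and Erbb3 were 0.315 and 0.345. Arf2, a small GTPase gene, had 37 fragments, a fold of 16.8 and no core. Stk38l, a kinase gene, followed with a fold of 16.5, Mettl8, a methyltransferase gene, with 15.9, and Map3k9, a kinase of the MAP kinase cascades, with 15.6, each with 1 core. The 130 summits in 3′ UTRs lay a median of 0.819 kb from the end of their transcript.

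Among other exons Lig1, the replicative DNA ligase, led with 60 fragments and a fold of 26.7 and 2 cores. Foxred2, a gene of protein degradation at the endoplasmic reticulum, had 50 fragments and a fold of 22.4, and Cdc26, a subunit of the anaphase-promoting complex, 51 fragments and a fold of 18.8. The exonic peaks of lowest fold stood over a high NIS background. Gm3054 had the highest, 3.999, and a fold of 4.07 from 34 fragments, and 15 peaks shared a background of 2.00 (within 0.005), among them Slc35e4 and Zcwpw1 with folds of 3.75 and 3.37. Gm3054 was also among the widest at 487 bp, between Atp2a2 (508 bp, fold 4.51, background 2.00) and 2610039C10Rik (476 bp, fold 9.37, background 0.321).

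Other factors of dendritic cells were looked for by their motifs. PU.1, the ETS factor that sets up myeloid cells, was searched as GAGGAAGT on both strands and lay within 100 bp of 10.2% of exonic and 12.5% of intronic summits, which did not differ past the threshold (Fisher's exact test, adjusted p = 0.193). It lay in 0.678% and 1.02% of the flanks of exonic peaks (exact McNemar test, adjusted p = 2.41e-13 and 1.91e-11). By class it lay at 12.4% of coding, 10.8% of 3′ UTR and 4.41% of 5′ UTR summits, and at 10.9% of all autosomal peaks. Exonic peaks with and without a RUNX core held it alike, at 10.1% and 10.3%.

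A further ETS form, CCGGAAGT, was more common in exonic than in intronic peaks, at 2.20% (13 peaks) against 0.397% (odds ratio 5.65, 2.55 to 12.1, Fisher's exact test, adjusted p = 5.81e-05). It lay at 2.48% of all autosomal and 8.57% of promoter peaks. By class it lay at 2.89% of coding, 1.47% of 5′ UTR, 3.08% of 3′ UTR and 0% of other-exon summits. AP-1, searched as TGANTCA, was less common in exonic than in intronic peaks, at 7.97% against 14.1% (odds ratio 0.527, 0.378 to 0.719, exact test, adjusted p = 5.81e-05), next to 12.2% of all autosomal peaks, and its share at exonic summits did not differ past the threshold from their flanks of 4.58% and 5.59%. Over 1 kb from every protein-coding start site, a setting chosen after seeing the data, the odds ratio of CCGGAAGT was 8.56 (3.24 to 21.4, Fisher's exact test, adjusted p = 0.000102). That of AP-1 was 0.621 (0.416 to 0.901, exact test, adjusted p = 0.0352). The interferon response site, C/EBP (TTGCNNAA), the E-box (CACGTG) and the CTCF motif lay at 2.37%, 7.12%, 3.90% and 2.54% of exonic summits, next to 3.09%, 8.28%, 4.25% and 2.70% of all autosomal peaks, and none differed from introns past the threshold. A match is a run of letters, not a shown binding event.

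The genes with exonic peaks were read against lists for dendritic cells, with 2.62% of all genes as the background and without a test. Listed genes were not matched to that background in exon length or expression, so a higher share is not shown to be particular to a list. Among 24 autosomal regulators and receptors of dendritic cells 4 held one. Flt3, the cytokine receptor on which dendritic cell development depends, had 40 fragments and a fold of 11.9 in its 3′ UTR over a background of 1.00, with a core 43.5 bp from the summit. Itgax, which encodes CD11c, had 15 fragments and a fold of 7.25 in a coding exon, and Itgam, which encodes CD11b, 19 fragments and a fold of 5.91 in its 3′ UTR, both without a core. The Csf1r peak (fold 7.22) lay in a 3′ UTR shared with Hmgxb3, so it could not be given to 1 gene.

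Of 25 interferon and STAT genes 4 held an exonic peak. Irf7, the interferon regulatory factor that amplifies type I interferon, had 23 fragments, a fold of 10.4 and a core 13.5 bp from the summit, in an exon of a transcript without coding sequence, and Irf3, Cish and Irf5 had folds of 8.12, 7.90 and 7.69. Of 33 genes of pattern recognition and NF-κB only Ticam2, the Toll-like receptor adaptor TRAM, held one, in its 3′ UTR with 34 fragments and a fold of 13.8. Of 30 MAP kinase and immediate early genes Junb, a subunit of AP-1, had 23 fragments and a fold of 10.7 in its single coding exon, with a core 7.5 bp from the summit, and Dusp1 had a fold of 6.62. Cytokines, chemokines and their receptors held 2 of 40 (Ccl17 and Ccr1), TGF-β signalling 2 of 26 (Acvr2a and Tgfbr2), antigen presentation 1 of 19 (H2-DMa), and the list of RUNX family and partner genes 0 of 16.

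Chromatin regulators held 6 of 46, led by Mll3, a histone H3 lysine methyltransferase, at a fold of 10.7 and Kdm3b, a histone demethylase, at 10.1, both in internal coding exons with 1 core. Neuronal genes held 1 of 22, Cacna1a, a calcium channel gene, at a fold of 11.3 in its last coding exon over a GC content of 81.1% and without a core, and muscle genes 0 of 20. Genes that the study lists as changed without Runx3 were counted where their names matched an autosomal gene of the annotation, which kept 118 of 127 lower and 69 of 71 higher in resident macrophages, and 133 of 152 lower and 75 of 84 higher in CD11b+ dendritic cells. Of those kept, 6 (5.08%), 4 (5.80%), 6 (4.51%) and 3 (4%) held an exonic peak, in the same order, next to 2.62% of all genes and without a test. Those lists come from other cells than the line mapped here. None of these peaks reached a fold of 10, and Cd300lf, an inhibitory receptor gene of myeloid cells, appeared in both higher lists with a pair of peaks of fold 7.45 and 5.52 in an exon of a transcript without coding sequence.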

How the data were processed

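Base calling with CASAVA 1.8 and alignment with Bowtie 1 to mm9 follow the submitters' processing notes. The authors called peaks with MACS2 2.0.10 at a q cutoff of 0.05, on 1 Runx3 and 1 NIS alignment, as the file headers show. The deposited pileup is a signal, the Runx3 fragments over the summit on the scale of the NIS library. All were whole multiples of 0.569, the worth of 1 fragment, within 0.00872 of a fragment, which gave the fragments per summit. The deposited fold enrichment is a ratio, pileup plus 1 over NIS background plus 1, from which the background was recovered in the same scaled units. The deposited −log10 q was used only as a filter; its header cell was unreadable, and it was identified by its place in the table and its values. Keeping 1 tag per position limits summit height, a higher background lowers the fold, and reads were aligned uniquely.

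Summits were placed on GENCODE vM1 and NCBIM37 (mm9) sequence, with 1-based coordinates, using Python 3.11.15, NumPy 2.4.6, SciPy 1.17.1 and pandas 2.3.3. The 109 peaks of chromosome X were left out. Densities were compared with exact binomial tests, shares with two-sided Fisher's exact tests and flanks with exact McNemar tests, Benjamini-Hochberg adjusted within a family (4 classes for density, 5 comparisons with introns, 10 flank tests, 7 motifs), with a threshold of 0.05. Further families were both flanks of the 7 motifs, the coding positions, and both core forms over all comparisons with introns at each distance setting. The p-values of core orientation and reading frame were not adjusted. Scripts were tested on simulated data. The coding position used the longest coding transcript, which left out 28 summits in single coding exons and 4 outside that transcript.

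Members, lists and tests were chosen with earlier results of these data known. Named are the 8, 6, 8 and 3 peaks of highest fold in coding, 5′ UTR, 3′ UTR and other exons, the 3 widest and the 3 of highest background as ranked before rounding (15 peaks share 2.00, within 0.005), genes with 3 or more exonic peaks, and list genes with a fold of 10 or more. Other list genes are named where a list holds few, and list counts cover genes matched by name on autosomes. The lists of genes changed without Runx3 were added later. Alternatives were a −log10 q of 5, a fold of 10, coding transcripts only, a promoter window to 1 kb, distal chromosome 5 left out, 1 peak per gene, 50 bp or whole-peak motif windows, TGTGGT alone and over 50% of the peak in exons.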

Additional observations from a re-analysis of the deposited data

How the results depend on the processing

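No paired analysis was possible because the deposited list names 1 Runx3 and 1 NIS alignment and holds no values per library, so no replicate was left out. The lowest summits rest on 9 fragments (exact 95% Poisson interval 4.12 to 17.1).

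The excess of the RUNX core at summits over flanks ranged from 13.24 to 68.42 points over 78 alternatives, lowest with TGTGGT alone in 5′ UTR exons. It passed in 77 of 78, and the exception was the upstream flank of 5′ UTR exons with the promoter window drawn to 1 kb (36.4 points, 11 peaks). That window gave density ratios of 1.02 in coding, 1.31 in other and 1.07 in all exons, core odds ratios of 1.11 in 5′ UTR and 0.900 in all exons, and fold odds ratios of 0.827 in coding, 0.473 in 5′ UTR, 0.744 in other and 0.808 in all exons, none past the threshold. It put first and internal coding exons at 1.05 and 0.986 times their length. It leaves the same peaks as taking only those over 1 kb from every protein-coding start site. The core and fold values of that setting were therefore the same and gave no further check. Peaks within 1 kb gave core odds ratios of 0.816 in 5′ UTR and 0.898 in all exons, and fold odds ratios of 0.739, 0.625, 0.557 and 0.678 in coding, 5′ UTR, other and all exons, none past the threshold. Density in coding exons was 0.857 times that of introns between the promoter window and 1 kb. These distance settings, except the promoter window for density, core and fold, and the 2 core forms apart were chosen after seeing the data.

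With a −log10 q of 5 or more, the core odds ratio of all exonic peaks was 0.819 and the fold odds ratio of coding and other exons 0.750 and 0.751, not past the threshold. With a fold of 10 or more, density ratios were 1.01 in coding, 1.20 in other and 1.15 in all exons, core odds ratios 0.653 in 5′ UTR and 0.874 in all exons, and the orientation odds ratio 0.943, none past the threshold. With 1 peak per gene, which removes more intronic than exonic peaks while lengths stay the same, the 3′ UTR density ratio was 1.34 (exact test, adjusted p = 0.00475) and the coding core odds ratio 0.694 (exact test, adjusted p = 0.0382). With TGTGGT alone the coding core odds ratio was 0.444 (exact test, adjusted p = 1.76e-09).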
